A study of Homo sapiens with 10 samples.

Results

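The RNA levels of 9 myosin heavy chain genes of epithelial cells were measured in Caco-2 cells. The genes were MYO1C, MYO1D, MYO1E, MYO5B, MYO5C, MYO6, MYO10, MYH9 and MYH14, chosen by symbol from the 60554 genes of the tables, and the value of a gene is the sum of the estimated counts of its transcripts. All 9 were among the 11640 protein-coding genes that passed the expression filter (an RPM, reads in 1000000 estimated counts of a library, above 3 in at least 20% of the libraries) and were tested. Caco-2 cells, from a human colon carcinoma, form an enterocyte-like layer in culture. All libraries came from a Caco-2 clone that stably carried dCas9-KRAB, a Cas9 that binds DNA without cutting it, joined to a repressor domain. The gCtl cells received an empty guide plasmid (5 libraries), and the g1 and g2 cells each received a guide RNA against the lncRNA LHFPL3-AS2 (3 and 2 libraries), all by lentivirus and with the cells grown as monolayers. The labels do not say whether libraries of a group came from separate cultures, so that p-values measure the spread between libraries, which may be technical, and the replicate numbers used here were given in accession order only to name the libraries.

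Myosins are motors that pull on or walk along actin filaments, and each heavy chain has a motor domain followed by a neck that binds light chains or calmodulin and by a tail that sets its cargo. Class I myosins are single-headed and tie membrane to actin, class V and class VI myosins carry vesicles, class X works in filopodia, and class II myosins assemble into filaments that contract. In an enterocyte these motors serve the brush border, the terminal web below it, the delivery of membrane to the apical side and the tension of cell junctions.

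The reads were of the QuantSeq type, which start from the polyA tail, so that counts are expected near the 3' ends of transcripts. Read positions were not examined, and the counts are estimates for annotated transcripts. The windows printed here are shown because they mark those ends for members whose levels differed or whose counts were split between ends. Each holds 30 bases, from 36 to 7 bases before the annotated 3' end in GENCODE v29 on GRCh38, and the capitals mark the polyadenylation signal AATAAA where these letters were found on the transcript's strand. Each lies in 1 exon, in the 3' UTR.
MYO1D-001, chr17:32492528-32492557, minus strand: cttaAATAAAgtcaaccattatctgggagg
MYO1E-001, chr15:59132440-59132469, minus strand: atatttaactaagtaaaatatgtaataagg
MYO1E-010, chr15:59136372-59136401, minus strand: gcccccacctcctaAATAAAtaaaggaatc
MYO5B-001, chr18:49822819-49822848, minus strand: gataaaaatttgtggaAATAAAtacttttg
MYO5B-006, chr18:49826266-49826295, minus strand: gtacctactgctcagAATAAAaacacttga
MYO5C-001, chr15:52192328-52192357, minus strand: tttgtaatactttaatcAATAAAattaatt
MYO6-202, chr6:75915182-75915211, plus strand: aattttggacctaaacattatttttctgta
MYO6-006, chr6:75915142-75915171, plus strand: cggcttttggtgaatttgtttaaggttaat
MYO10-201, chr5:16661920-16661949, minus strand: accctgccacctgtttttgtgAATAAAgtt

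Of the 15 transcripts that held more than 10% of a member's counts, 12 had a sequence of the same version, and 6 of these held AATAAA in the window. The windows of MYO1E-008, MYO5C-002 and MYH14-008 were not printed above, and none of them held AATAAA. Those of MYO1E-008 and MYH14-008 lie in coding sequence. Of 83119 coding transcripts of the annotation, 32.7% held it there. The single window of MYO1D and both windows of MYO5B held the signal, and neither MYO6 window did, which says only that these letters are not in these 30 bases.

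Directions below follow the labels, because the targeted RNA itself did not separate the groups. LHFPL3-AS2, which rests on 4.39 to 44.0 estimated counts per library, was at 0.840 to 3.73 RPM in gCtl, at 2.03 to 3.95 in g1 and at 2.16 and 6.01 in g2, and it was not lower in the libraries labelled as knockdown (p = 0.19 by an exact permutation test, two-sided, of log2(RPM + 1)). Library totals ran from 3838803 to 8730468 estimated counts. The 8 epithelial markers examined, among them EPCAM, KRT18 and VIL1, summed to 1810 to 2360 RPM in gCtl. They summed to 1680 to 2070 in g1 and to 1750 and 1760 in g2. For every single marker the range in g1 and g2 overlapped with that in gCtl, and no test of it is given. KRT8 held 125 to 312 RPM in gCtl and 98.1 to 194 in g1 and g2. In the same order KRT18 held 316 to 677 and 248 to 491, and CDH1 110 to 165 and 77.5 to 141. VIL1 held 122 to 175 and 141 to 187, and CDX2 40.9 to 65.5 and 42.1 to 80.8. KRT20 held only 1.08 to 4.22 RPM in gCtl and 1.94 to 9.97 in g1 and g2. KRT19 held 236 to 407 RPM in gCtl and 160 to 265 in g1 and g2, and EPCAM 670 to 827 and 702 to 872. The 4 mesenchymal markers summed to at most 13.9 RPM and the 3 leukocyte markers to at most 2.55, while the 5 muscle markers summed to 21.7 to 29.8 RPM in gCtl and 28.7 to 40.2 in g1 and g2, nearly all of it MYH11 with MYH2 at 0 throughout. Longer transcripts were on the whole higher in the libraries labelled as knockdown: the median log2 fold change was -0.14 among the 2913 tested genes whose leading transcript has at most 1626 bases and 0.14 among the 2910 whose leading transcript has at least 4833 bases, which include 8 of the 9 members. The calls with the guides together were also made with this length trend taken out, a setting chosen after seeing the data.

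Among the 9 myosins, MYO1D was lower and MYO6, MYO5B and MYH14 were higher in the g1 and g2 libraries as a group than in gCtl. A gene was called where edgeR's quasi-likelihood test gave an adjusted p (Benjamini-Hochberg) no higher than 0.05 and the fold change reached 1.5. By this rule 1 member was lower and 3 were higher, against 11.1% of all tested genes called lower and 8.11% called higher. The other 5 members, MYO1C, MYO1E, MYO5C, MYO10 and MYH9, had log2 fold changes between -0.30 and 0.24. The median log2 fold change was 0.11 over the members and 0.02 over all tested genes. It was 0.14 among the tested genes whose leading transcript has at least 4833 bases. In these bulk samples a smaller number of expressing cells and less RNA per cell cannot be told apart.

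**Figure D1:**
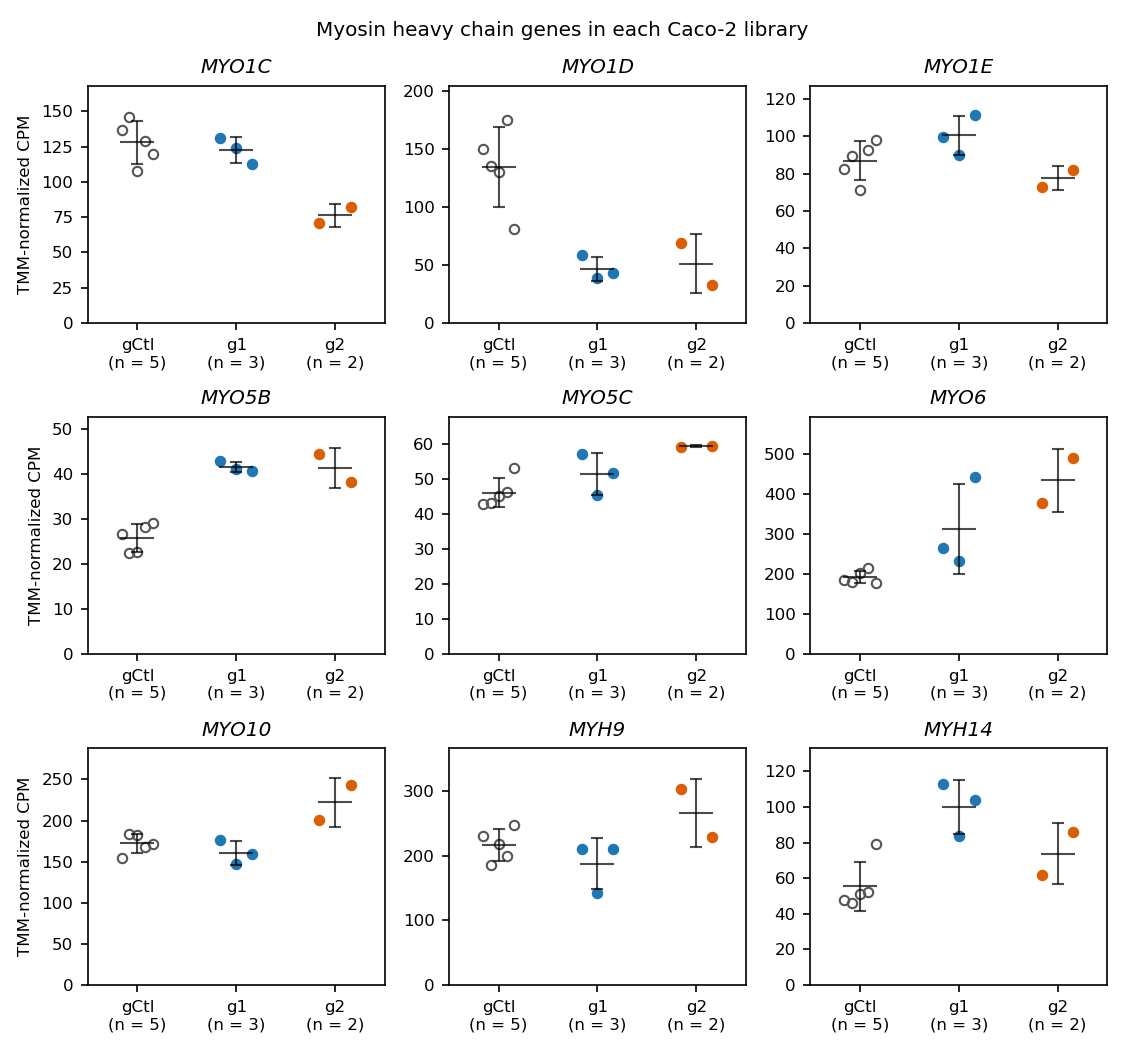
Level of each of the 9 myosin genes, as CPM (TMM-normalized counts in 1000000 counts of the tested genes, vertical axes from 0), in the 5 gCtl, 3 g1 and 2 g2 libraries. Circles are libraries and bars are the mean ± SD. MYO1D lies at 81.5 to 175 CPM in gCtl and at 32.97 to 69.0 in g1 and g2, while MYO6 and MYO5B lie higher in g1 and g2 with no overlap.

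MYO1D, a short-tailed class I myosin of the brush border and of other membranes, fell under both guides. Its gCtl libraries held 151, 136, 131, 175 and 81.5 CPM. The g1 libraries held 58.7, 38.7 and 42.8 CPM, and the g2 libraries 69.0 and 32.97. All 5 g1 and g2 libraries were thus below every gCtl library, a pattern that 8.32% of the tested genes showed, and the nearest values were 69.0 in g2 replicate 1 and 81.5 in gCtl replicate 5. The mean was 135 ± 34.4 CPM in gCtl (SD, n = 5), 46.7 ± 10.6 in g1 (n = 3) and 51.0 ± 25.5 in g2 (n = 2). MYO1D was 2.78-fold lower with the guides together (log2 fold change -1.47, SE 0.22, adjusted p = 0.000444, edgeR's quasi-likelihood test).

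Against gCtl alone, the log2 fold change of MYO1D was -1.52 for g1 (SE 0.26, adjusted p = 0.00103, edgeR) and -1.41 for g2 (SE 0.30, adjusted p = 0.00363, same test). Both comparisons use the same gCtl libraries. Between the guides the difference was 0.12 with an SE of 0.31. Without g2 replicate 2, which held the lowest value, the g2 difference was -0.96 and was no longer called (adjusted p = 0.0637, edgeR). Without gCtl replicate 5 the guides together gave -1.60, and with the length trend removed -1.57. MYO1D was located at chromosome 17, 32492522 to 32877177 on the minus strand of GRCh38, and 4 genes annotated on the opposite strand within it reached at most 1.78 RPM in any library.

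The 3 genes whose profile over the 10 libraries lay closest to that of MYO1D, by the root-mean-square difference of centred log2 CPM among 8809 genes, were UBL5 (0.19), PCBD1 (0.20) and RPS21 (0.21). UBL5 encodes a ubiquitin-like protein, PCBD1 an enzyme that recycles biopterin, and RPS21 a protein of the small ribosomal subunit. UBL5 averaged 74.0 ± 24.8 CPM in gCtl, 26.3 ± 4.47 in g1 and 33.3 ± 17.5 in g2. The leading transcripts of these genes are short, at 432 bases for UBL5, 1006 for PCBD1 and 344 for RPS21, whereas that of MYO1D has 5563 bases and is shorter than 18.8% of those of the tested genes.

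MYO1C, which links recycling membrane to actin, was lower in the g2 libraries. The gCtl libraries held 137, 146, 108, 129 and 119 CPM and the g1 libraries 131, 124 and 113, and these ranges overlapped. The g2 libraries held 70.6 and 82.2 CPM, below all other libraries, a pattern that was not counted over all tested genes. The log2 fold change was -0.74 for g2 against gCtl (SE 0.16, adjusted p = 0.00453, edgeR) and -0.06 for g1 (SE 0.14, adjusted p = 0.795). MYO1C was the only member called between the guides, at -0.68 for g2 against g1 (SE 0.18, adjusted p = 0.0374, edgeR). That call was lost in turn without gCtl replicate 4 (-0.68), g1 replicate 1 (-0.63), g1 replicate 2 (-0.67) and g2 replicate 1 (-0.61), with adjusted p between 0.0621 and 0.112 in edgeR.

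MYO1E, a long-tailed class I myosin of endocytic sites and cell contacts, was not called in any comparison. It ranged from 71.3 to 98.3 CPM in gCtl, with a median of 89.5, from 90.2 to 111 in g1 and from 73.1 to 82.2 in g2. Its log2 fold change with the guides together was 0.07 (SE 0.14) in edgeR.

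In class V, MYO5B rose under both guides. MYO5B moves Rab11-bearing recycling endosomes to the apical membrane, and its loss in people causes microvillus inclusion disease. The gCtl libraries held 26.8, 22.5, 22.6, 28.2 and 29.1 CPM, the g1 libraries 43.0, 41.2 and 40.8, and the g2 libraries 44.6 and 38.3. Every g1 and g2 library was above every gCtl library, as in 7.21% of the tested genes. MYO5B was 1.61-fold higher with the guides together (log2 fold change 0.69, SE 0.14, adjusted p = 0.0038, edgeR's quasi-likelihood test). It was 0.69 for g1 and 0.68 for g2. The value lies close to the fold limit, and with the length trend removed it was 0.54 (adjusted p = 0.0169, edgeR), 0.58 for g1 and 0.49 for g2, all below the limit. Without g2 replicate 1 the g2 value was 0.54 (adjusted p = 0.0841, edgeR). MYO5C, which serves secretory granules of exocrine cells, held 42.8 to 53.2 CPM in gCtl (median 45.0), 45.3 to 57.2 in g1 and 59.1 and 59.5 in g2. Its log2 fold change was 0.24 with the guides together (SE 0.13, adjusted p = 0.191, edgeR), and it was not called in any comparison.

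MYO6 rose under both guides. It belongs to the class of myosins that walk towards the minus end of actin, and it acts in the uptake of vesicles at the base of microvilli. The gCtl libraries held 185, 181, 202, 215 and 178 CPM. The g1 libraries held 265, 232 and 441 CPM, and the g2 libraries 378 and 489. Every g1 and g2 library was above every gCtl library, as in 7.21% of the tested genes, and g1 replicate 3 stood above the other g1 libraries. MYO6 was 1.88-fold higher with the guides together (log2 fold change 0.91, SE 0.19, adjusted p = 0.00337, edgeR's quasi-likelihood test), at 0.70 for g1 and 1.17 for g2. Without g1 replicate 3 the g1 value was 0.39 and was not called (adjusted p = 0.114, edgeR), and the difference of g2 from g1, 0.47 with all libraries (SE 0.23, adjusted p = 0.249), became 0.78 (adjusted p = 0.0256).

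MYO10, which gathers at the tips of filopodia, was at 155 to 184 CPM in gCtl (median 172), at 147 to 176 in g1 and at 201 and 243 in g2. Both g2 libraries were above all others, a pattern that was not counted over all tested genes. The log2 fold change of g2 was 0.37 (SE 0.15, adjusted p = 0.0756, edgeR) and MYO10 was not called in any comparison.

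Of the class II heavy chains, which form the contractile filaments of junctions and of the terminal web, MYH14 rose and MYH9 was not called. MYH14 held 47.7, 46.2, 51.0, 52.5 and 79.4 CPM in gCtl, 113, 83.6 and 104 in g1 and 61.6 and 86.0 in g2. The g1 libraries were above all gCtl libraries, a pattern that was not counted over all tested genes, while gCtl replicate 5 lay among the g2 libraries. The log2 fold change of MYH14 was 0.69 with the guides together (SE 0.19, adjusted p = 0.0147, edgeR's quasi-likelihood test), 0.85 for g1 (SE 0.19, adjusted p = 0.00503) and 0.41 for g2 (SE 0.21, adjusted p = 0.164). The difference of g2 from g1 was -0.44 with an SE of 0.24 and was not called. A gene on the opposite strand, AC008655.1, overlaps MYH14 and held 6.77 to 11.4 RPM in gCtl, 5.51 to 6.96 in g1 and 7.20 and 7.29 in g2. How strand was used in the counting is not given in the sources used here. Adding its counts to those of MYH14 gave 41.8 to 63.8 RPM in gCtl, 62.8 to 87.1 in g1 and 43.9 and 60.0 in g2. With the counts added, an alternative chosen after seeing the data, the log2 fold change was 0.54 with the guides together (adjusted p = 0.0296, edgeR), which is under the fold limit and so no longer called, and 0.67 for g1, which was still called.

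MYH9, the heavy chain of nonmuscle myosin IIA, held 186 to 247 CPM in gCtl (median 219), 142 to 212 in g1 and 229 and 304 in g2. These ranges overlapped, and the log2 fold change with the guides together was 0.02 (SE 0.17, adjusted p = 0.953, edgeR).

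**Figure D2:**
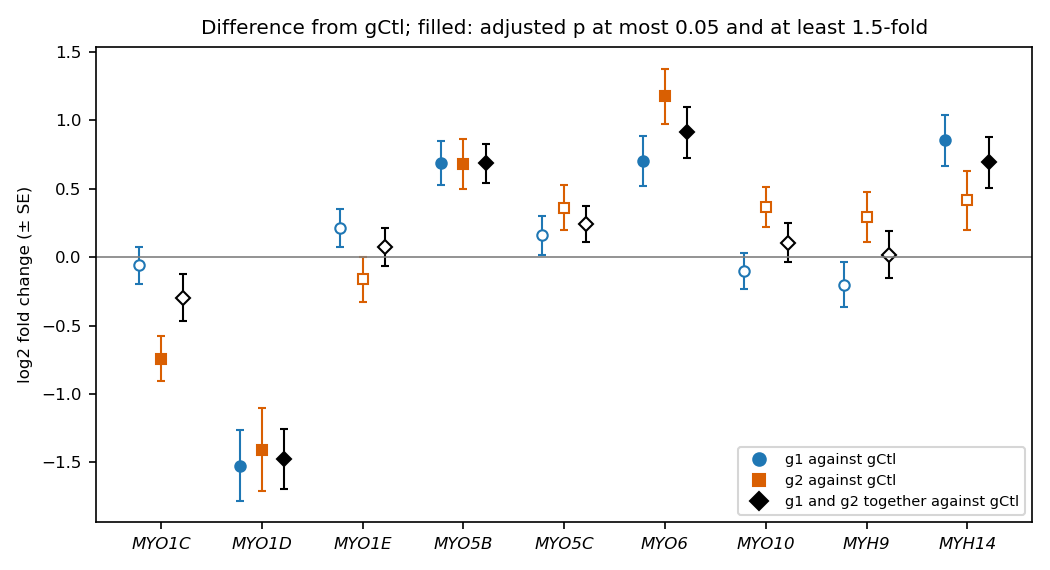
Log2 fold change against gCtl (vertical axis) of each of the 9 myosin genes, with bars of ± SE derived from the edgeR test statistic. Symbols are circles for g1, squares for g2 and diamonds for the guides together, filled for called differences. MYO1D lies between -1.52 and -1.41, MYO5B near 0.69 and MYO6 between 0.70 and 1.17, while MYO1C is filled for g2 and MYH14 for g1 but not the reverse.

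Taken by guide, g1 against gCtl gave 1 member called lower (MYO1D) and 3 called higher (MYO5B, MYO6 and MYH14), where 10.5% of all tested genes were called lower and 6.33% higher. The comparison of g2 with the same gCtl libraries gave 2 called lower (MYO1C and MYO1D) and 2 called higher (MYO5B and MYO6), where 12.2% of the tested genes were called lower and 11.5% higher. Between g2 and g1, 1 member was called lower (MYO1C) and 0 higher, where 2.75% and 1.81% of the tested genes were called. The MYO10 and MYH9 differences of g2 from g1, 0.47 and 0.50 on the log2 scale, had unadjusted p of 0.0104 and 0.0246 in edgeR's quasi-likelihood test and did not pass after adjustment, and DESeq2 called 0 members higher there. The median log2 fold change of the members was 0.16 for g1 and 0.36 for g2, and that of all tested genes -0.0061 and 0.02.

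The levels of the members in gCtl were set side by side per length, as TPM (length-corrected counts scaled to a sum of 1000000), and without division by length, as RPM. Because these reads start at the 3' end, a count need not grow with length, and the order depended on the scale. In TPM, MYO1E was the highest at 61.0 ± 6.92 TPM (SD, n = 5), followed by MYO6 at 37.7 ± 3.65, MYH9 at 28.2 ± 5.41, MYO10 at 25.1 ± 5.47, MYO1D at 24.2 ± 5.09 and MYO1C at 22.7 ± 2.26. The values of each neighbouring pair from MYO6 to MYO1C overlapped between libraries. MYO5C at 8.04 ± 0.996 and MYH14 at 7.81 ± 1.93 overlapped as well, and MYO5B was the lowest at 4.11 ± 0.761. In RPM, MYH9 was the highest at 149 ± 15.9, followed by MYO6 at 132 ± 11.6, MYO10 at 118 ± 7.65, MYO1D at 92.8 ± 24.5 and MYO1C at 88.0 ± 11.0, with overlap between each neighbouring pair. MYO1E was at 59.7 ± 6.80, MYH14 at 37.9 ± 8.81, MYO5C at 31.6 ± 2.51 and MYO5B at 17.8 ± 2.08 RPM. The place of MYO1E differs because transcripts of 952 and 541 bases were assigned 24.6% and 19.8% of its counts. Together the 9 members held between 51.0% and 60.1% of the RPM of all myosin heavy chain genes in each library.

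The division of counts among transcripts was compared between the groups because a QuantSeq count follows the 3' end that is used. MYO1C-001 held 99.6% of the MYO1C counts, MYH9-001 99.4% of the MYH9 counts and MYO1D-001 94.1% of the MYO1D counts, so that the differences in MYO1C and MYO1D lay almost wholly on a single transcript. MYO1D-001 went from 88.3 ± 23.8 RPM in gCtl to 29.2 ± 9.24 in g1 and 28.7 ± 13.9 in g2. The leading transcript held 84.8% of the counts for MYO10, 76.1% for MYO5C, 68.0% for MYH14, 63.7% for MYO5B, 55.9% for MYO6 and 53.1% for MYO1E.

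The share on the leading transcript did not pass the test for any of the 9 members after adjustment (exact two-sided permutation tests, adjusted p between 0.214 and 0.683). The lowest unadjusted p, 0.0238 in the exact permutation test, was that of MYO1E. Its share on MYO1E-001 was 49.0% to 52.4% in gCtl, 50.7% to 54.7% in g1 and 55.8% to 61.1% in g2. MYO1E-010, which ends 3932 bases upstream of MYO1E-001 within the gene, held 15.5 ± 3.95 RPM in gCtl, 11.7 ± 1.93 in g1 and 7.15 ± 2.77 in g2. The third transcript of MYO1E, MYO1E-008, is annotated without a known 3' end, and its last bases lie in coding sequence. Its level was 12.8 ± 3.19 RPM in gCtl, 18.5 ± 4.35 in g1 and 10.5 ± 3.51 in g2.

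For MYO5B, both transcripts printed above held counts in all groups. MYO5B-001 held 56.4% to 75.4% of its counts in gCtl and 44.6% to 78.0% in g1 and g2 (exact permutation test, p = 0.651). In RPM, MYO5B-001 averaged 11.6 ± 1.01 in gCtl, 18.7 ± 3.44 in g1 and 13.8 ± 4.73 in g2. MYO5B-006 averaged 6.18 ± 1.76, 9.14 ± 5.42 and 10.2 ± 1.46 RPM in the same groups.

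For MYO6 the estimate moved between transcripts from library to library, with 15.1% to 72.6% on MYO6-202 and 1.42% to 51.7% on MYO6-006 within gCtl alone. These transcripts end 40 bases apart, as their windows above show. Joined, a grouping chosen after seeing the data, they held 65.2% to 77.2% in gCtl and 69.3% to 88.6% in g1 and g2 (exact two-sided permutation test, p = 0.0635). The most distal end held 7.16% to 14.1% in gCtl and 6.38% to 9.82% in g1 and g2 (exact permutation test, p = 0.167). The split of MYH14 was as unsteady, with 0 to 78.5% of its counts on MYH14-008 within gCtl.

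The other genes of the myosin system were read from lists of heavy chains, light chains, regulators and cargo partners. Of 30 other heavy chain genes, 14 passed the filter, and 4 of these rose and 0 fell with the guides together, where 8.11% of all tested genes rose and 11.1% fell. These shares are the background for the counts of the other lists as well. MYO1A, the calmodulin-binding class I myosin that bridges the actin core of a microvillus to its membrane, rose from 10.5 ± 2.07 CPM in gCtl to 41.0 ± 15.1 in the g1 and g2 libraries (n = 5 and 5, log2 fold change 1.96, SE 0.26, adjusted p = 0.000173, edgeR's quasi-likelihood test). MYH3, an embryonic muscle heavy chain, was at 1.89 ± 0.475 and 5.90 ± 0.756 CPM. It reached at most 1.59 RPM in gCtl and passed the filter only through 4 of the g1 and g2 libraries, so that the filter itself selected for its difference. MYO15B rose from 15.1 ± 4.07 to 30.1 ± 10.01 CPM. On the log2 scale it was called for g1 (1.275) but not for g2 (0.50, adjusted p = 0.187, edgeR). In g2 against gCtl 2 others of this list fell, MYO19 at -0.78 and MYO5A at -1.49 on the log2 scale, which were named after their values were seen. The 16 heavy chain genes that did not pass the filter reached at most 3.60 RPM, with MYH1, MYH2, MYH4, MYH7, MYH13 and MYO18B at 0 in all libraries.

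Of 18 light chain and calmodulin genes, 9 were tested, and 1 rose and 0 fell. This was MYL9, a regulatory light chain of nonmuscle and smooth muscle myosin II, at 172 ± 37.3 CPM in gCtl and 332 ± 204 in g1 and g2, where its values of 165 to 685 overlapped with gCtl (log2 fold change 0.95, SE 0.30, adjusted p = 0.0304, edgeR's quasi-likelihood test). MYL9 was called for g2 (1.41) but not for g1 (0.53, adjusted p = 0.194, edgeR). Its 2 g2 libraries held 230 and 685 CPM, and the highest gCtl library held 230. Of 25 genes of myosin II control and assembly, 24 were tested, and 3 rose and 3 fell. TPM1, a tropomyosin, rose from 98.4 ± 16.6 to 205 ± 83.4 CPM. RHOA, a small GTPase that acts upstream of myosin II, fell from 130 ± 32.8 to 70.3 ± 24.6 CPM, and UNC45A, a myosin chaperone, from 27.4 ± 6.93 to 15.7 ± 4.94. RHOA was called for g1 (log2 fold change -1.095) but not for g2 (-0.61, adjusted p = 0.0939, edgeR). UNC45A was called for g2 (-1.13) but not for g1 (-0.63, adjusted p = 0.0864, edgeR). The others were MYLK, the myosin light chain kinase, which fell at -0.78 on the log2 scale, and CDC42BPB (0.62) and SHROOM3 (0.61), which rose. By guide, CDC42BPB was at 0.89 for g1 and 0.09 for g2, with the difference of g2 from g1 called at -0.81 (adjusted p = 0.0239, edgeR), and SHROOM3 was at 0.38 for g1 and 0.90 for g2. Neither CDC42BPB (0.51) nor SHROOM3 (0.45) was called with the length trend removed.

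Of 17 partners of class V motors in recycling and apical delivery, 15 were tested, and with the guides together 2 rose and 0 fell. These were RAB11FIP3 (log2 fold change 0.81) and RAB11FIP2 (0.59), which bind Rab11, and RAB11FIP2 also binds MYO5B. RAB11FIP3 was called for g1 (1.07) but not for g2 (0.31, adjusted p = 0.359, edgeR). RAB11FIP2 lies at the fold limit and was at 0.48 with the length trend removed, where it was not called. It was at 0.63 for g1, which was called, and at 0.52 for g2, which was not. In g2 against gCtl 0 partners of this list rose and 2 fell, RAB25 (-1.465) and RAB11B (-0.98), which were named after their values were seen. There 11.5% of all tested genes were called higher and 12.2% lower. All 10 partners of MYO6 were tested, and with the guides together 1 rose and 1 fell. OPTN, a cargo receptor that binds MYO6, rose from 143 ± 17.9 to 265 ± 92.2 CPM, and TOM1L2, an endosomal adaptor, fell from 13.9 ± 3.84 to 8.66 ± 1.28. TOM1L2 was called for neither guide alone (-0.64 for g1 and -0.75 for g2). In g2 against gCtl, DAB2 was the 1 partner called lower, at -0.80 (adjusted p = 0.00426, edgeR), and it was named after its values were seen. For g1 DAB2 was at 0.07, and its difference of g2 from g1 was called at -0.88 (adjusted p = 0.0149, edgeR). Of 12 filopodium genes, 10 were tested and 1 rose, VASP, which promotes the growth of actin filaments, from 36.2 ± 6.78 to 80.5 ± 26.6 CPM (log2 fold change 1.15). With the guides together, 2 other heavy chains (MYH10 and MYO9A), 0 light chains, 3 class V partners (RAB11FIP4, RAB25 and STXBP2) and 2 filopodium genes (BAIAP2L1 and ITGB1) were lower at an unadjusted p under 0.05 in edgeR. They are named here for this count. DESeq2 called 0 genes lower in these 4 lists with the guides together. The median log2 fold changes of the lists lay between -0.10 for the genes of myosin II control and 0.31 for the other heavy chains, beside 0.02 over all tested genes.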

How the data were processed

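RNA of 10 Caco-2 libraries was read by QuantSeq 3' sequencing. The authors pseudoaligned the reads to GENCODE transcripts with kallisto (version given as 42.5 in the submitters' processing notes) and deposited the estimated counts of 199169 transcripts for each library, without normalization or pooling. The tables were not filtered, and every line named a gene. The strand setting is not given in the sources used here.

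The estimated counts of a gene's transcripts were added and then rounded for the tests. Groups were taken from the labels. RPM is over all counts of a library, TPM was computed from annotated transcript lengths, and CPM is over the 11640 genes tested after TMM scaling. Differences were fitted by the quasi-likelihood method of edgeR 4.0.16 under R 4.3.3 (functions glmQLFit, glmQLFTest; Benjamini-Hochberg adjustment over all genes tested), once with g1 and g2 as a group and once with 3 groups. The SE given for an edgeR difference was derived from the test. It is the absolute log2 fold change divided by the square root of the quasi-likelihood F statistic. Exact permutation tests used scipy 1.17.1. Libraries within a group differed by more than sampling noise in all 14 pairs, so none was treated as a library deposited again. With 3838803 to 8730468 counts per library, the members rested on 72.0 (MYO5B) to 2445 (MYO6) counts per library.

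The alternatives were DESeq2 1.42.0, its size factors, library totals, filterByExpr, no filter, genes of all biotypes, limma 3.58.1 on log2(RPM + 1), fits of only the groups compared and each library left out. The removal of the length trend (lowess on log2 length, through the offsets), the joined MYO6 ends and the sum with AC008655.1 were added after seeing the data. The fits were tested on simulated data.

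The members and the lists were chosen with earlier results of these data known, and MYO1D is a gene that the study followed up, so their directions are not independent evidence. All members were named, with the up to 3 called genes of each list that had the largest change, any gene needed to account for a count of 5 or fewer, the target, the markers (1 called gene of the other heavy chains is counted but not reported here) and the 3 genes most like MYO1D with at least 10 CPM. Sequences and positions are from GENCODE v29 on GRCh38. A transcript was matched by identifier, version and length. Protein sequences were not used here.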

Additional observations from a re-analysis of the deposited data

Results flagged for a closer look

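MYH14 was at 79.4 CPM in gCtl replicate 5, apart from the other 4 gCtl libraries at 46.2 to 52.5. Its gap to the nearest of them exceeds the 95% limit of Dixon's test (0.71 for 5 samples). Of 18 groups of 5 examined, 2 for each member, this was the 1 that did so, and chance gives about 1 in 20. Without this library the log2 fold change of MYH14 was 0.88 with the guides together and 0.58 for g2, which was still under the fold limit.

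MYO1C differed between the guides, with a log2 fold change of -0.68 for g2 against g1 in the fit of 3 groups (adjusted p = 0.0374, edgeR's quasi-likelihood test). The g2 libraries were lower in 2 of 2, at 70.6 and 82.2 CPM against 113 to 131 in g1. How many of all tested genes showed this pattern was not counted. The call rests on 2 g2 libraries and was lost in 4 of the 10 fits that leave out a library.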

How the results depend on the processing

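With the guides together, MYO1D and MYO6 were called under every alternative tried, with log2 fold changes of -1.64 to -1.35 and 0.76 to 1.03. MYH14 was called under all but the sum with AC008655.1 (0.54), and ranged from 0.54 to 0.88. MYO5B was not called in limma on log2(RPM + 1) (0.57) or with the length trend removed (0.54), and for g2 also not with library totals (0.50). Library totals moved the median of all genes to -0.16 for g2 and -0.10 for g2 against g1. The share of called genes that were lower rose with them from 57.8% to 69.4% with the guides together, from 51.6% to 73.3% for g2 and from 60.3% to 83.4% for g2 against g1.

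Signs turned only for differences that were not called. With the guides together MYO1E was at -0.0066 with library totals, -0.024 in limma and -0.064 with the length trend removed, MYO10 at -0.0057 in limma and -0.062 with the trend removed, and MYH9 at -0.085 with library totals, -0.017 with all biotypes, -0.11 in limma and -0.12 with the trend removed. MYO1D in g2 against g1 was at -0.054 with library totals and -0.10 in limma. DESeq2 called 831 genes in g2 against g1, where edgeR called 531. The cause was not tested.

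Leaving out single libraries, the genes called ranged from 1717 to 2425 for the guides together, from 1261 (without g1 replicate 3) to 2260 for g1, from 1498 (without g2 replicate 2) to 3110 for g2 and from 243 (without g1 replicate 1) to 857 (without g2 replicate 1) for g2 against g1. The members called were 4 throughout, 3 to 4, 3 to 4 and 0 to 2. Log2 fold changes that turned sign ranged from -0.0035 to 0.14 for MYO1E and from -0.13 to 0.14 for MYH9 with the guides together, from -0.12 to 0.014 for MYO1C in g1, and from -0.54 to 0.54 for MYO1D and -0.16 to 0.082 for MYO5B in g2 against g1. The difference in the percent of counts on the leading transcript ranged from -0.011 to 0.267 points for MYO1C, -7.43 to 0.925 for MYO5B, -2.04 to 12.95 for MYO6 and -0.265 to 4.93 for MYO10.

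No paired analysis was possible because the labels carry no replicate numbers. Among the members MYO5B had the fewest counts, and g2 rests on 2 libraries.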
